A study of Mus musculus with 6 samples.

Results

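The immunoglobulin constant region genes were examined in whole lungs of TNF-Tg and WT mice. The set held 10 gene symbols, picked by name from the 49568 symbols of the count table. They were the 8 heavy chain constant genes (Ighm, Ighd, Ighg3, Ighg1, Ighg2b, Ighg2c, Ighe and Igha), the kappa light chain constant gene Igkc, and Jchain, which encodes the joining chain of polymeric antibodies. The TNF-Tg genotype carried a human TNF transgene, which the WT littermates lacked. Both groups were female C57BL/6 mice, 4 months old, with 3 mice per genotype, 1 lung library per mouse and no treatment. The promoter of the transgene is not given in the sources used here. The lung was sequenced as a bulk tissue, so fewer cells of a type and less RNA per cell cannot be told apart in any value given here.

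An antibody is built of heavy and light chains, and the constant region of the heavy chain sets its isotype. A naive B cell makes IgM and IgD by alternative splicing of a common primary transcript of Ighm and Ighd. Class switch recombination later deletes the DNA in between and joins the same variable region to a downstream constant gene for IgG, IgE or IgA. Plasma cells hold the secreted heavy chain and the light chain among their most abundant transcripts, and they make the J chain, which links IgM into pentamers and IgA into dimers. In C57BL/6 mice the Ighg2c gene takes the place that Ighg2a has in other strains.

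The 4 IgG subclasses differ most in the hinge, the flexible stretch between the arms and the stem of the antibody, whose cysteines bond the heavy chains to each other. The hinge exons are shown because the subclasses are counted apart below, and the capitals mark the in-frame cysteine codons. They lie on the minus strand of GRCm38 and are written 5′ to 3′, at chr12:113360529-113360576 for Ighg3, chr12:113329844-113329882 for Ighg1, chr12:113307261-113307326 for Ighg2b and chr12:113288263-113288325 for Ighg2c.
Ighg3: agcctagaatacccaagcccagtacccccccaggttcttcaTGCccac
Ighg1: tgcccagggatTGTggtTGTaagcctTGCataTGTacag
Ighg2b: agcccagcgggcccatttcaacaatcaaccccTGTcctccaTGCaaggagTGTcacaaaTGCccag
Ighg2c: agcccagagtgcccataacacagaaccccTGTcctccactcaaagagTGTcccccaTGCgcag
The hinge of Ighg3 held 1 cysteine codon in 48 bases. Those of Ighg1 and Ighg2b held 4 in 39 and 66 bases, and that of Ighg2c held 3 in 63 bases. Over the secreted coding sequences, Ighg2b and Ighg2c were the most alike pair, at 85.9% identity, and the other IgG pairs lay between 75.3% and 77.4%. No stretch of 100 bases, the read length, of any of the 10 genes occurred in a transcript of another gene, so a full-length read on a constant exon belongs to 1 of these genes.

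The secreted forms of Ighm and Igha end in a tailpiece whose penultimate cysteine takes part in joining subunits to each other and to the J chain. The last 63 coding bases, stop codon included, are shown for the 2 heavy chains that Jchain serves, at chr12:113420867-113420929 for Ighm and chr12:113258768-113258830 for Igha, with the codon of that cysteine in capitals.
Ighm: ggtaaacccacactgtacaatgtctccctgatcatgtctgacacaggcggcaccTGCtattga
Igha: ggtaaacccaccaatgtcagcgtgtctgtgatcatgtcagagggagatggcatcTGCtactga
The counts are summed over a gene, so the secreted and the membrane forms of a heavy chain cannot be separated in them.

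The total counts were between 25396923 and 30049463 in TNF-Tg lungs and between 31400978 and 32529408 in WT lungs. A gene with 3 counts, the number taken as the limit of detection, stood at 0.0922 to 0.118 CPM (counts scaled to a library total of 1e6), and this limit covers counting error only. Gm42418 alone took 5.22% of the counts of TNF-Tg 1 and no more than 0.274% in any other lung. WT 1 held 3586 CPM of 8 squamous epithelium markers and 2087 CPM of 8 skeletal muscle markers, against 11.6 to 33.3 and 15.2 to 54.2 CPM in the other lungs. Results are therefore also given without these 2 lungs. The human transgene is not among the rows used here. Mouse Tnf, which is not the transgene, had 106, 213 and 405 counts in TNF-Tg lungs and 16, 14 and 35 in WT lungs. Counts were tested over all genes with edgeR's quasi-likelihood test and Benjamini-Hochberg adjustment at 0.05. All adjusted p-values of single genes come from that fit. Levels are CPM on a total scaled by edgeR's TMM method, and log2 fold changes are TNF-Tg minus WT, given ± their standard error.

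Of the 10 genes, 9 were higher in TNF-Tg than in WT lungs and none was lower. Over all 19199 genes tested, 24% were called higher and 23.4% lower, or 47.4% in all. The 9 genes were Ighm, the 4 IgG genes, Ighe, Igha, Igkc and Jchain, and their log2 fold changes ran from 3.77 for Igha to 6.78 for Ighg1. The one gene that did not pass the test was Ighd (log2 fold change 0.19 ± 0.22, adjusted p = 0.509). The median log2 fold change of the 10 genes was 5.07, and that of all genes tested was 0.03. In the same 9 genes the lowest TNF-Tg lung lay above the highest WT lung, which was also so for 30.5% of all genes tested. Another 28.2% were separated the other way round, or 58.7% in either direction. By log2 fold change, Ighg1 ranked 31, Ighg2c 38 and Ighg2b 51 of the 19199 genes, Igha ranked 340, and Ighd ranked 7761. With TNF-Tg 1 and WT 1 left out, 9 of the 10 genes were again called higher and none lower.

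Ighm, the heavy chain of IgM, stood at 5914, 11528 and 1289 CPM in TNF-Tg lungs 1 to 3 and at 153, 188 and 251 CPM in WT lungs. TNF-Tg 3 was the lowest of its group and still 5.14 times the highest WT lung. The mean level was 31.7 times higher in TNF-Tg lungs (log2 fold change 4.98 ± 0.74, adjusted p = 0.000979). TNF-Tg lungs differed among themselves by up to 8.94 times, and WT lungs by up to 1.64 times. Without TNF-Tg 2, the lung with the highest level, the log2 fold change of Ighm was 4.19.

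Ighd, the heavy chain of IgD, stood at 45.1, 51.5 and 64.3 CPM in TNF-Tg lungs and at 33.5, 47.0 and 61.0 CPM in WT lungs. The groups overlapped over most of their range, and the lungs of each group differed by up to 1.43 and 1.82 times. Ighd is transcribed together with Ighm from the same promoter, starting 6.406 kb downstream of the Ighm start. Without WT 1 its log2 fold change was -0.034.

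Ighg1, the heavy chain of IgG1, stood at 228, 399.6 and 113 CPM in TNF-Tg lungs and at 1.07, 1.52 and 4.12 CPM in WT lungs. The difference was 109.5-fold, and the lowest TNF-Tg lung was 27.6 times the highest WT lung (log2 fold change 6.78 ± 0.67, adjusted p = 0.000124). Ighg2c, the heavy chain of IgG2c, stood at 2846, 2852 and 707 CPM in TNF-Tg lungs and at 12.1, 13.98 and 44.1 CPM in WT lungs. TNF-Tg 1 and TNF-Tg 2 were close to each other and TNF-Tg 3 was lower, and in WT lungs replicate 3 was the highest. The level was 91.2 times higher in TNF-Tg lungs (log2 fold change 6.51 ± 0.78, adjusted p = 0.000327).

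Ighg2b, the heavy chain of IgG2b, stood at 1542, 1948 and 315 CPM in TNF-Tg lungs and at 8.28, 14.3 and 35.8 CPM in WT lungs. It showed the same order of lungs as Ighg2c in the WT group, with a 65.1-fold difference between genotypes (log2 fold change 6.02 ± 0.84, adjusted p = 0.000728). Ighg3, the heavy chain of IgG3, stood at 501, 40.6 and 39.3 CPM in TNF-Tg lungs and at 1.99, 2.98 and 8.70 CPM in WT lungs. Here TNF-Tg 1 stood far above the other TNF-Tg lungs, which were close to each other and above every WT lung. Its log2 fold change was 5.40 with the largest standard error of the 10 genes, 1.18 (adjusted p = 0.00649), and 3.09 without TNF-Tg 1 (adjusted p = 0.00410). With edgeR's robust dispersion the adjusted p of Ighg3 was 0.0578.

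Igha, the heavy chain of IgA, the main antibody of mucosal surfaces, stood at 7745, 3506 and 5643 CPM in TNF-Tg lungs and at 82.3, 107 and 1047 CPM in WT lungs. WT 3 held 12.7 times as much as WT 1, a wider spread than among the TNF-Tg lungs, which differed by up to 2.21 times. The groups did not overlap, and the level was 13.7 times higher in TNF-Tg lungs (log2 fold change 3.77 ± 0.98, adjusted p = 0.0137). Without WT 3 the log2 fold change was 5.89, and without both TNF-Tg 1 and WT 1 it was 2.95. With robust dispersion the adjusted p was 0.0839.

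Ighe, the heavy chain of IgE, the antibody bound by mast cells and basophils, was the least abundant of the 10 genes per kilobase of transcript in every lung. It had 38, 73 and 81 counts in TNF-Tg lungs and 1, 1 and 5 counts in WT lungs, so that WT 1 and WT 2 lay under the limit of detection of 3 counts. Summed over the lungs, 192 counts stood against 7, a ratio of rates of 31.3 with an exact 95% interval of 14.9 to 78.8 that covers counting error only. In the fit over all genes Ighe was called higher in TNF-Tg lungs (adjusted p = 0.000154).

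Igkc encodes the constant region of the kappa light chain, which pairs with heavy chains of every isotype, and was the most abundant of the 10 genes per kilobase of transcript in every lung. It stood at 24758, 23859 and 9217 CPM in TNF-Tg lungs and at 260, 414 and 1788 CPM in WT lungs. TNF-Tg 3 was the lowest of its group and WT 3 the highest of its own, and the groups did not overlap (log2 fold change 4.55 ± 0.81, adjusted p = 0.00233). Jchain stood at 3844, 3182 and 1802 CPM in TNF-Tg lungs and at 25.9, 41.8 and 178 CPM in WT lungs. The order of the lungs within each group was that of Igkc, and the level was 35.9 times higher in TNF-Tg lungs (log2 fold change 5.16 ± 0.77, adjusted p = 0.00103). WT 3 was the highest WT lung for all 10 genes. Without it the log2 fold changes of the 9 genes that passed the test were between 5.18 for Ighm and 7.56 for Ighg1, with 5.83 for Igkc, 6.43 for Jchain, 5.96 for Ighe, 6.27 for Ighg3, 6.80 for Ighg2b and 7.34 for Ighg2c. Without both TNF-Tg 1 and WT 1 the values of all 9 genes were lower than with all lungs. They were 3.87 for Igkc, 4.46 for Jchain, 4.83 for Ighm, 4.69 for Ighe and 2.95 for Igha. Among the IgG genes they were 6.46 for Ighg1, 5.90 for Ighg2c, 5.45 for Ighg2b and 2.73 for Ighg3.

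**Figure D1:**
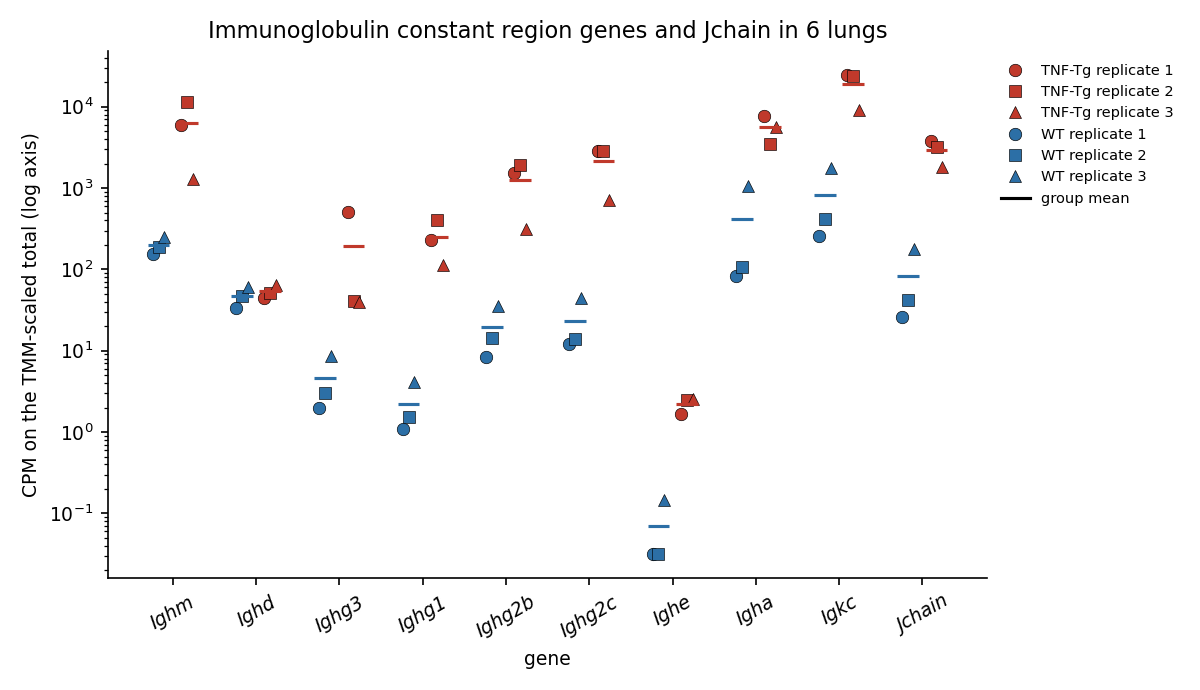
Level of each of the 10 genes in each lung, in CPM on the TMM-scaled total (log axis), with TNF-Tg lungs in red, WT lungs in blue, the marker shape for the replicate and a bar for the group mean. The red and blue points are apart for every gene except Ighd, whose lungs lie between 33.5 and 64.3 CPM in both groups.

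The 8 heavy chain genes lie in a row on the minus strand of chromosome 12 of GRCm38, with Ighm (chr12:113418558-113422730) first in the direction of transcription. Ighd starts 6.406 kb after the Ighm start, Ighg3 61.498 kb, Ighg1 92.207 kb, Ighg2b 114.797 kb, Ighg2c 133.798 kb, Ighe 149.482 kb and Igha (chr12:113254830-113260236) 162.494 kb after it. Set in this order, the log2 fold changes were 4.98 at Ighm, 0.19 at Ighd, 5.40, 6.78, 6.02 and 6.51 over the 4 IgG genes, 4.89 at Ighe and 3.77 at Igha. Igkc lies on another chromosome, at chr6:70726435-70726966 on the plus strand, and Jchain at chr5:88519809-88527891 on the minus strand.

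**Figure D2:**
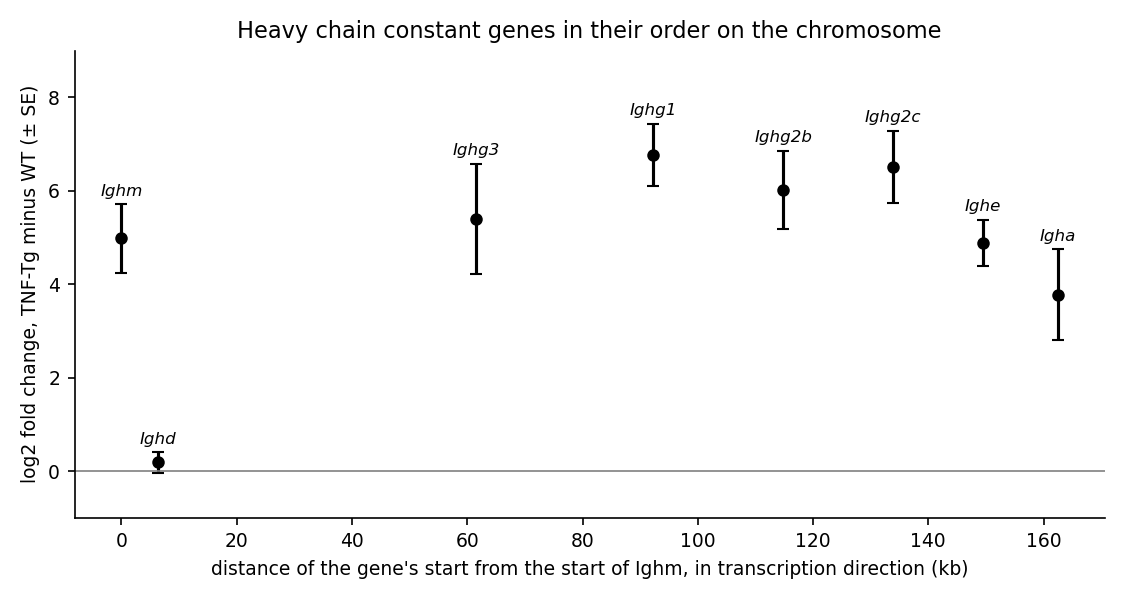
Log2 fold change (TNF-Tg minus WT, with bars of 1 standard error from edgeR) of the 8 heavy chain constant genes against the distance of each gene's start from the Ighm start, in kb in the direction of transcription. Ighd, 6.406 kb from Ighm, sits at 0.19, and the other 7 genes sit between 3.77 and 6.78.

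Taken as a share of all counts, the 8 heavy chain genes held 1.70%, 1.98% and 0.900% in TNF-Tg lungs and 0.0294%, 0.0363% and 0.152% in WT lungs. All 10 genes together held 4.28%, 4.61% and 2.11% in TNF-Tg lungs and 0.0583%, 0.0805% and 0.358% in WT lungs. TNF-Tg 3 had the lowest and WT 3 the highest share of its group, and the groups did not overlap.

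Levels of different genes were compared per kilobase (kb) of the secreted or coding transcript. In TNF-Tg lungs the mean was 36237 CPM per kb for Igkc, 5120 for Igha, 4182 for Ighm, 2112 for Jchain, 1922 for Ighg2c, 1138 for Ighg2b, 230 for Ighg1, 179 for Ighg3, 66.9 for Ighd and 1.63 for Ighe. Igkc at the top and Ighe at the bottom were apart from their neighbors in this order, and every other pair of neighbors had overlapping ranges over the 3 lungs. When all merged exons were taken as the length, Igha and Ighm changed places (2111 and 3311 CPM per kb), and so did Jchain and Ighg2c (1169 and 1610 CPM per kb). In WT lungs the mean was 1543 CPM per kb for Igkc, 374 for Igha, 132 for Ighm, 58.9 for Jchain, 58.8 for Ighd, 21.1 for Ighg2c, 17.5 for Ighg2b, 4.21 for Ighg3, 2.08 for Ighg1 and 0.0513 for Ighe. The place of Igha over Ighm rested on WT 3 (951 and 168 CPM per kb), since Ighm was the higher of the pair in WT 1 (103 and 74.8 CPM per kb) and WT 2 (126 and 96.9 CPM per kb). The place of Jchain level with Ighd rested on WT 3 as well (128 and 76.1 CPM per kb), since Ighd was the higher of the pair in WT 1 (41.7 and 18.6 CPM per kb) and also in WT 2. The mean of Ighd stood above those of all 4 IgG genes in WT lungs. Its lowest WT lung (41.7 CPM per kb) was above the highest WT lung of Ighg2c (39.7 CPM per kb), but with merged exons the ranges overlapped (lowest Ighd 17.6, highest Ighg2c 33.3 CPM per kb). In TNF-Tg lungs the mean of Ighd lay under those of all 4 IgG genes, which for Ighg3 rested on TNF-Tg 1 (463 CPM per kb). Ighd was above Ighg3 in TNF-Tg 2 (64.2 and 37.5 CPM per kb) and in TNF-Tg 3 (80.2 and 36.3 CPM per kb).

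The isotype mix was taken as the share of each isotype in the counts of the 8 heavy chain genes, which needs no scaling between lungs. The shares were not corrected for the length of the genes. The heavy chain counts numbered 431475, 594106 and 261690 in TNF-Tg lungs and 9247, 11809 and 49353 in WT lungs. The widest 95% Wilson interval of any share given here was 7.17 percentage points, in an IgG subclass share of a WT lung. Differences were tested over lungs with exact two-sided permutation tests, in which 3 lungs against 3 cannot go below p = 0.1, so no share could pass 0.05. Over the 13 shares and ratios tested, an exact permutation p of 0.1 came to 0.217 after Benjamini-Hochberg adjustment.

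IgG was the isotype whose share was higher in all TNF-Tg lungs. It made up 27.2%, 25.8% and 14.4% of heavy chain counts in TNF-Tg lungs and 8.02%, 8.75% and 6.39% in WT lungs. The means were 22.4% ± 7.03 (SD, n = 3) and 7.72% ± 1.21 (SD, n = 3), a difference of 14.7 percentage points (exact permutation p = 0.1, higher in 3 of 3 lungs). IgD was lower in all TNF-Tg lungs, with 0.239%, 0.253% and 0.787% against 11.4%, 12.6% and 4.20% in WT lungs (difference -8.97 percentage points, exact permutation p = 0.1). The level of Ighd itself overlapped between the groups, so this share moved with the other heavy chain genes. The differences were 12.5 percentage points for IgG and -7.86 for IgD without TNF-Tg 1 and WT 1.

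IgM and IgA together made up most of the heavy chain counts in every lung, and their split varied more between lungs of a genotype than between genotypes. IgM held 31.4%, 56.7% and 15.8% in TNF-Tg lungs and 52.4%, 50.2% and 17.3% in WT lungs (difference -5.32 percentage points, exact permutation p = 0.9). IgA held 41.1%, 17.2% and 69.0% in TNF-Tg lungs and 28.1%, 28.5% and 72.1% in WT lungs (difference -0.44 percentage points, exact permutation p = 1). TNF-Tg 2 was the TNF-Tg lung with the most IgM and the least IgA, while TNF-Tg 1, TNF-Tg 3 and WT 3 were led by IgA in these counts. The order in TNF-Tg 1 turned with the length used. Ighm was above Igha per kb of merged exons (3136 and 2903 CPM per kb) and below it per kb of the secreted transcript (3961 and 7041 CPM per kb). The IgM and IgA differences both changed sign when single lungs were left out. The IgM difference was 4.11 percentage points without TNF-Tg 3 and -16.7 without WT 3, and the IgA difference was 14.2 without WT 3 and -13.7 without TNF-Tg 3. For IgM it was -16.4 without TNF-Tg 2, -3.71 without TNF-Tg 1, 0.896 without WT 1 and -0.19 without WT 2. For IgA it was 12.2 without TNF-Tg 2, 0.229 without TNF-Tg 1, -7.82 without WT 1 and -7.66 without WT 2.

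**Figure D3:**
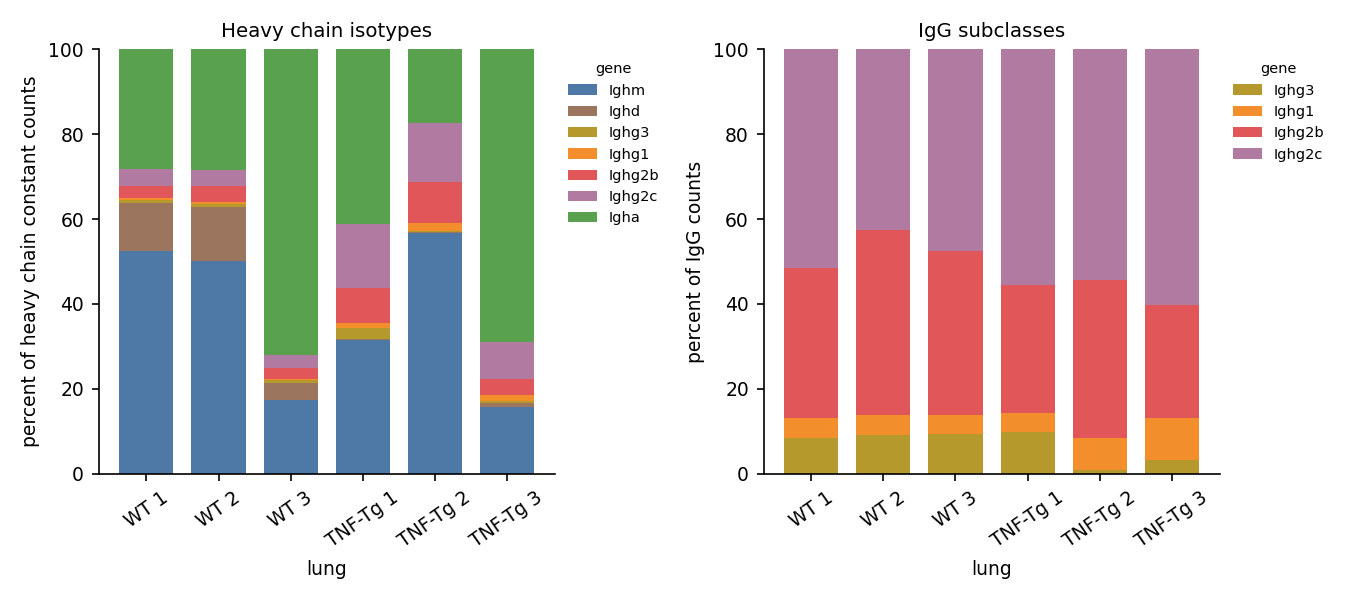
Left, the share of each heavy chain constant gene in the heavy chain counts of each lung, in percent. Right, the share of each IgG gene in the IgG counts of each lung, in percent. Ighe, with at most 81 counts in a lung, is too small to be drawn. The brown Ighd band takes 4.20% to 12.6% of the WT bars and 0.239% to 0.787% of the TNF-Tg bars.

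Within IgG, Ighg2c was the leading subclass by counts of every lung except WT 2, where Ighg2b had 450 counts and Ighg2c 441. Per kb of merged exons Ighg2c led in WT 2 as well (10.5 against 5.33 CPM per kb for Ighg2b). Ighg2c made up 55.6%, 54.4% and 60.2% of IgG counts in TNF-Tg lungs and 51.6%, 42.7% and 47.6% in WT lungs, higher in 3 of 3 lungs (difference 9.46 percentage points, exact permutation p = 0.1). Ighg2b made up 30.1%, 37.2% and 26.8% in TNF-Tg lungs and 35.3%, 43.6% and 38.6% in WT lungs (difference -7.80 percentage points, exact permutation p = 0.2). The 2 groups overlapped for Ighg2b, since TNF-Tg 2 lay above WT 1.

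Ighg1 and Ighg3 were the smaller subclasses, and in both of them the WT lungs were close together and the TNF-Tg lungs were not. Ighg1 made up 4.58%, 4.65% and 4.44% of IgG counts in WT lungs and 4.46%, 7.63% and 9.66% in TNF-Tg lungs (difference 2.69 percentage points, exact permutation p = 0.3). Ighg3 made up 8.49%, 9.10% and 9.38% in WT lungs and 9.79%, 0.775% and 3.35% in TNF-Tg lungs (difference -4.35 percentage points, exact permutation p = 0.4). TNF-Tg 1 was the highest lung of all for Ighg3 and TNF-Tg 2 the lowest. The Ighg1 difference was 4.09 percentage points without TNF-Tg 1 and 1.49 without TNF-Tg 3, and the Ighg3 difference was -6.93 without TNF-Tg 1 and -2.42 without TNF-Tg 2.

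Among the ratios of counts tested within a lung, those of Ighd to Ighm and of Jchain to Ighm and Igha did not overlap between genotypes. Not every pair of the 10 genes was compared in this way. Per 100 Ighm counts there were 0.762, 0.447 and 4.99 Ighd counts in TNF-Tg lungs and 21.8, 25.01 and 24.3 in WT lungs (difference -21.7, exact permutation p = 0.1). The 3 WT lungs were close together although their IgM share ran from 17.3% to 52.4%, and each TNF-Tg lung lay below them. Per 100 counts of Ighm and Igha there were 28.1, 21.2 and 26.0 Jchain counts in TNF-Tg lungs and 11.0, 14.2 and 13.8 in WT lungs, higher in 3 of 3 lungs (difference 12.1, exact permutation p = 0.1). These differences were -22.0 and 9.61 without TNF-Tg 1 and WT 1.

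The balance of light to heavy chains overlapped between the groups. Igkc had 131.5, 117 and 113 counts per 100 heavy chain counts in TNF-Tg lungs and 89.1, 111 and 123 in WT lungs (difference 12.9, exact permutation p = 0.4). This difference was 3.65 without WT 1, 20.7 without WT 3, 7.44 without TNF-Tg 1 and -1.84 without TNF-Tg 1 and WT 1 together. Kappa made up 94.0%, 96.1% and 95.7% of the light chain constant counts in TNF-Tg lungs and 93.7%, 95.8% and 97.0% in WT lungs (difference -0.27 percentage points, exact permutation p = 0.9). The kappa share thus covered nearly the same range in both groups.

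Ighd and Ighm were also set against 2 B cell surface genes, as a description with no test. Per count of Ms4a1, which encodes CD20, Ighd stood at 2.05, 3.54 and 3.27 in TNF-Tg lungs and at 3.20, 4.56 and 5.19 in WT lungs, and the groups overlapped. Per count of Cd79a, the signaling chain of the receptor, it stood at 0.393, 0.473 and 0.718 in TNF-Tg lungs and at 0.914, 1.04 and 0.860 in WT lungs, with no overlap. Ighm per count of Cd79a was 51.6, 105.9 and 14.4 in TNF-Tg lungs and 4.19, 4.16 and 3.53 in WT lungs. The WT lungs were thus close together in this ratio and the TNF-Tg lungs spread over a wide range above them.

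**Figure D4:**
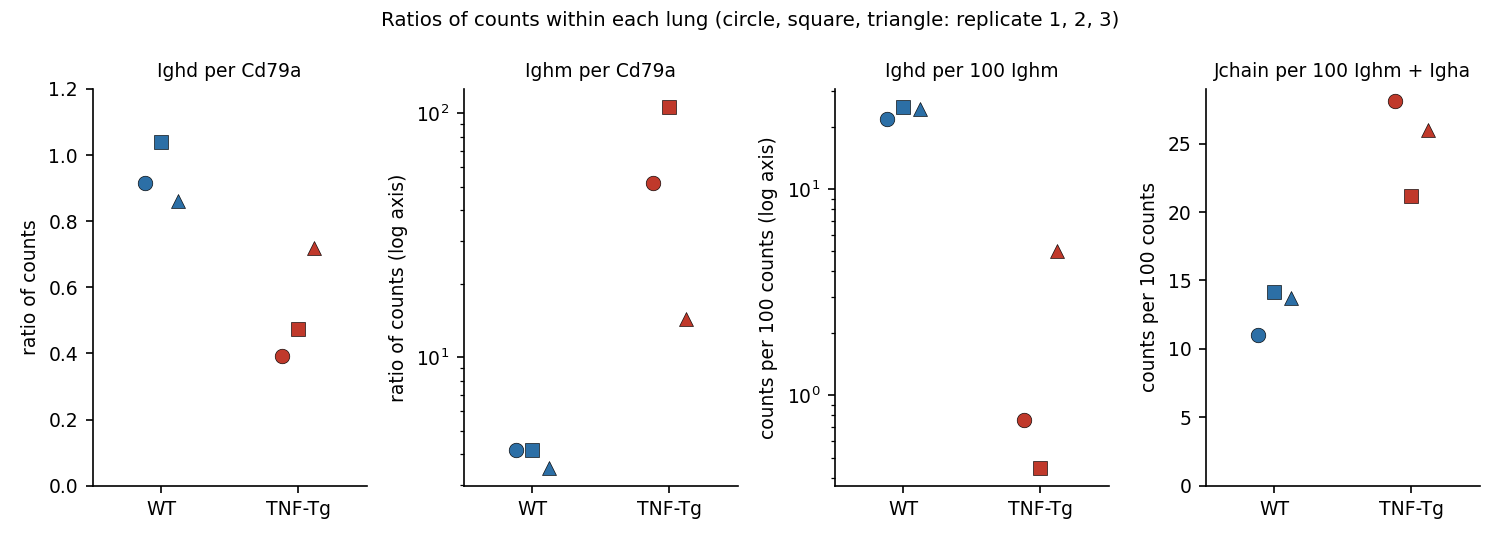
Ratios of counts within each lung for Ighd per Cd79a, Ighm per Cd79a (log axis), Ighd per 100 Ighm (log axis) and Jchain per 100 Ighm and Igha, with WT lungs in blue, TNF-Tg lungs in red and the marker shape for the replicate. In each of the 4 panels the groups are apart. TNF-Tg lungs lie below WT lungs in both ratios of Ighd, at 0.393 to 0.718 against 0.860 to 1.04 per Cd79a, and above them in the ratios of Ighm and Jchain.

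The lambda light chain constant genes, which serve the antibodies that carry no kappa chain, were all higher in TNF-Tg lungs (4 of 4, median log2 fold change 5.03). Over all genes tested, 24% were called higher and 47.4% in either direction. Iglc1 stood at 1385, 499 and 224 CPM in TNF-Tg lungs and at 8.50, 9.77 and 29.6 CPM in WT lungs (log2 fold change 5.46). Iglc3 stood at 83.0, 355 and 83.3 CPM against 5.53, 4.31 and 8.73 CPM (4.81), and Iglc2 at 125, 118 and 107 CPM against 3.45, 4.03 and 16.7 CPM (3.85). Iglc4 had 17, 18 and 10 counts in TNF-Tg lungs and 0, 0 and 1 in WT lungs. WT 3 was the highest WT lung of each, as it was for Igkc. The log2 fold change of Iglc1 was 4.46 without TNF-Tg 1 and 6.26 without WT 3, that of Iglc3 was 3.75 without TNF-Tg 2, and that of Iglc2 was 4.96 without WT 3.

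Of 12 B cell receptor and B cell genes, 8 were higher in TNF-Tg lungs and none was lower (median log2 fold change 0.87), beside 24% higher and 47.4% in either direction over all genes tested. The summed level of the 12 genes was 443 to 473 CPM in TNF-Tg lungs and 187 to 313 CPM in WT lungs, and its part in the differences of the constant region genes was not tested. Blnk and Btk, an adaptor and a kinase downstream of the B cell receptor, rose by 1.93 and 1.58 on the log2 scale. Cd79a rose by 1.04 and Ms4a1 by 0.79. Leaving out TNF-Tg 1 and WT 1 left 6 of the 12 called higher, where 13.8% of all genes were called higher, 17.4% lower and 31.2% in either direction, and Ms4a1 was then at an adjusted p of 0.0635.

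Of 12 plasma cell and antibody secretion genes, 9 were higher and none was lower (median log2 fold change 1.85), beside the same 24% higher over all genes. Derl3, which takes part in the removal of misfolded proteins from the endoplasmic reticulum, and Mzb1, a chaperone of antibody assembly, had the largest changes among those above a mean of 1 on the log2 CPM scale. Mzb1 stood at 74.6, 49.6 and 27.9 CPM in TNF-Tg lungs and at 3.76, 4.95 and 11.6 CPM in WT lungs (log2 fold change 2.90, and 3.14 for Derl3). The lowest TNF-Tg lung was replicate 3 and the highest WT lung was replicate 3, as for Igkc and Jchain. Without WT 3 these log2 fold changes were 3.53 and 3.84, and without TNF-Tg 1 and WT 1 they were 2.18 and 2.49. Xbp1, a transcription factor of the secretory program, rose by 0.64, and had a log2 fold change of 0.35 (adjusted p = 0.131) without TNF-Tg 1 and WT 1. Sdc1, which encodes the surface protein CD138 and is also made by epithelium, stood at 132 to 192 CPM in TNF-Tg lungs and 165 to 175 CPM in WT lungs (log2 fold change -0.02). The summed level of the list was 599 to 964 CPM in TNF-Tg lungs and 445 to 484 CPM in WT lungs. Without TNF-Tg 1 and WT 1, 6 of the 12 were called higher, beside 13.8% of all genes.

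Of 15 class switching and germinal center genes, 11 passed the filter on low counts, of which 3 were higher and 1 was lower (median log2 fold change 0.27). Over all genes tested 24% were called higher and 47.4% were called in either direction, so 4 calls among 11 genes did not exceed the background. Icosl, a ligand for helper T cells, rose by 0.65, Cd40, the B cell receptor for T cell help, rose by 0.54, and Tgfb1, a switch factor for IgA, rose by 0.54. Bcl6, a transcription factor of the germinal center, was lower (log2 fold change -0.31). In these genes the differences were small beside those of the heavy chain genes. Without TNF-Tg 1, 2 genes of the list were called, and without TNF-Tg 1 and WT 1 only 1, Icosl. The call of Cd40 was lost without TNF-Tg 1, TNF-Tg 3 or WT 1 (adjusted p up to 0.0577), and that of Bcl6 without TNF-Tg 1, TNF-Tg 2, WT 1 or WT 2 (adjusted p up to 0.132). Bcl6 was also not called under the replicate block, with scaling by total counts only or with no filter on low counts.

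Of 9 antibody transport and survival factor genes, 8 were tested, and 3 were higher and 1 was lower (median log2 fold change 0.11). These 4 calls among 8 genes lay near the 47.4% called in either direction over all genes tested. The genes that rose were Cxcr4, a homing receptor of plasma cells (log2 fold change 1.30), its ligand Cxcl12 (1.29), and Ccr10, a homing receptor of IgA plasma cells, at 5.50, 1.85 and 3.72 CPM in TNF-Tg lungs and 0.221, 0.285 and 1.41 CPM in WT lungs. Pigr, the receptor that carries polymeric IgA and IgM across epithelium, stood at 68.8, 78.7 and 56.0 CPM in TNF-Tg lungs and at 88.1, 103 and 247 CPM in WT lungs (log2 fold change -1.11, adjusted p = 0.0355 from edgeR's fit). WT 3, the WT lung with the most Igha, was also the one with the most Pigr. Without WT 3 the log2 fold change of Pigr was -0.50, and without any 1 of the TNF-Tg lungs it was not called (adjusted p up to 0.110). It was not called with DESeq2, robust dispersion or the replicate block either. The call of Ccr10 was lost without TNF-Tg 1 or WT 2 (adjusted p up to 0.0599), and without WT 3 its log2 fold change was 3.83. With TNF-Tg 1 and WT 1 both left out, edgeR did not call Ccr10 (log2 fold change 1.66, adjusted p = 0.0893). It did call Pigr there (log2 fold change -1.41, adjusted p = 0.0205). Only Cxcr4 and Cxcl12 were called without TNF-Tg 1.

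**Figure D5:**
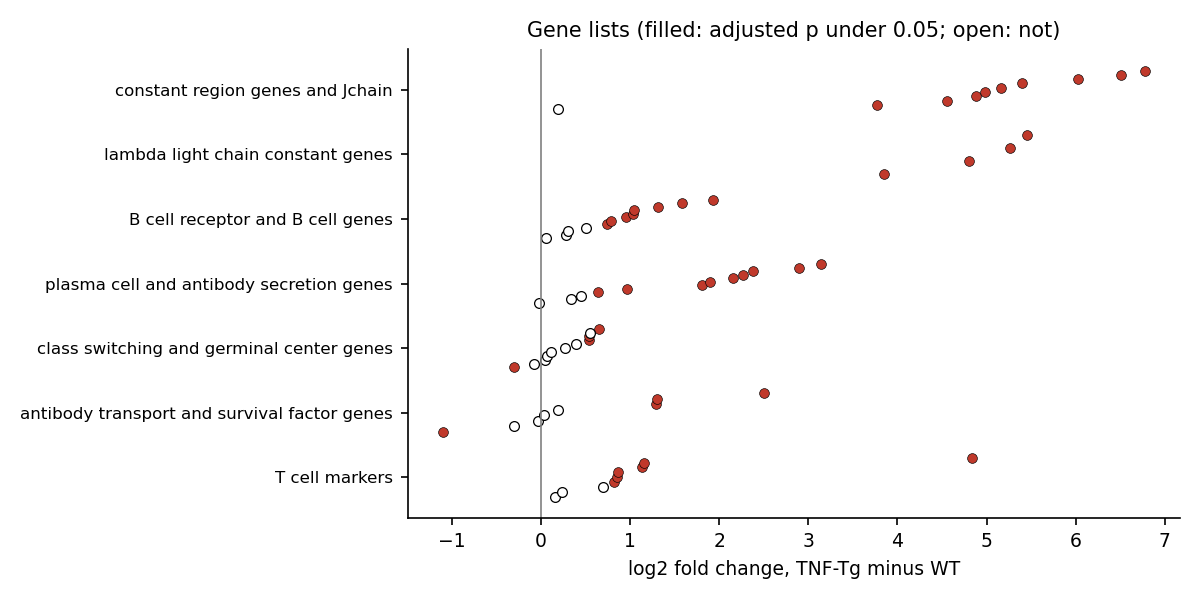
Log2 fold change (TNF-Tg minus WT) of each tested gene of 7 lists, filled where the adjusted p of edgeR was under 0.05 and open where it was not. The constant region and lambda genes lie at 3.77 or above except Ighd at 0.19, and the class switching genes lie between -0.31 and 0.65.

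Markers of other cells moved with the genotype as well, and their counts stand beside 24% higher and 23.4% lower over all genes tested. Of 9 T cell markers, 6 were higher and none lower, with a summed level of 395 to 563 CPM in TNF-Tg lungs and 72.7 to 138 CPM in WT lungs. Most of the summed difference lay in Cd4, which alone had 267 to 407 CPM in TNF-Tg lungs and 9.23 to 18.4 CPM in WT lungs. Cd4 had a log2 fold change of 4.84, against 1.16 for Trac, the constant region of the T cell receptor alpha chain. Without TNF-Tg 1 and WT 1, 3 of the 9 were called higher, beside 13.8% of all genes. Of 8 lymphoid stroma and vessel markers, 5 were higher and none lower (1323 to 1568 against 249 to 277 CPM), among them the B cell chemokine Cxcl13 (log2 fold change 6.69) and the T cell chemokine Ccl19 (5.43). The addressin Madcam1 was also called higher, with a mean of 7.77 CPM in TNF-Tg lungs and 0 counts in all WT lungs. The lung identity markers were present in all lungs, with 7 of 9 lower in TNF-Tg lungs (19988 to 25733 against 38397 to 44742 CPM). Scgb1a1 of club cells fell by 1.77 and Hopx of alveolar type 1 cells fell by 1.60 on the log2 scale.

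Of the squamous epithelium markers 6 of 8 were tested and 4 were lower in TNF-Tg lungs, among them Calml3 (log2 fold change -3.29) and Sbsn (-1.69). Of the skeletal muscle markers 7 of 8 were tested and 3 were lower, among them Tnnt3 (-4.69) and Ckm (-3.62). Over all genes tested 23.4% were called lower and 47.4% in either direction. Krt13, which was not tested, had 45433 counts in WT 1, 1 in WT 2 and 8 in WT 3, against 3, 4 and 0 in TNF-Tg lungs 1 to 3. Without WT 1, 3 squamous markers and 1 muscle marker were called lower, and the counts were the same without TNF-Tg 1 and WT 1 together. Calml3 (log2 fold change -1.43) and Ckm (-1.21) were among those called without WT 1, whereas Sbsn (-0.84, adjusted p = 0.0767) and Tnnt3 (-0.49, adjusted p = 0.664) were not. Without WT 2 or WT 3, 6 squamous markers and at least 6 muscle markers were called lower, while without any 1 of the TNF-Tg lungs no muscle marker and at most 2 squamous markers were. No muscle marker was called with DESeq2, limma-voom, robust dispersion or the replicate block, and no squamous marker with limma-voom or robust dispersion (2 with DESeq2). Of the fat cell markers 1 of the 4 tested was lower, Cidec (-1.82), a share near the 23.4% of all genes tested, with a summed level of 3.76 to 38.1 CPM for the list in TNF-Tg lungs and 34.1 to 68.7 CPM in WT lungs. That call was lost with robust dispersion and without TNF-Tg 1, TNF-Tg 2 or WT 3, and all 4 were lower without TNF-Tg 3, where the log2 fold change of Cidec was -2.91. The part of these cell types in the differences of the constant region genes was not tested.

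The genes with the profile most like that of the summed heavy chain genes over the 6 lungs, with the immunoglobulin genes and Jchain left out, were Prg2, Ccl19-ps1, Cd4, Gm2564 and CR974586.3, among 14852 genes with a mean of at least 1 on the log2 CPM scale. Likeness was the root mean square difference of log2 profiles, each centered on its own mean, and was 0.416 for Prg2, 0.436 for Ccl19-ps1, 0.463 for Cd4 and 0.591 for both Gm2564 and CR974586.3. The profile of the heavy chain genes itself had a standard deviation of 2.52 on this scale. Prg2, the major basic protein of eosinophils, stood at 25.4, 36.3 and 14.1 CPM in TNF-Tg lungs and at 0.885, 0.507 and 2.06 CPM in WT lungs. As with Ighm, TNF-Tg 2 was its highest and TNF-Tg 3 its lowest TNF-Tg lung, and WT 3 its highest WT lung. Whether the pseudogene Ccl19-ps1 shares reads with Ccl19 was not tested.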

How the data were processed

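Whole lungs of 3 TNF-Tg and 3 WT mice were sequenced as stranded poly(A) libraries with single-end reads. The authors deposited raw counts, whole reads per gene symbol and lung without normalization, made according to the submitters' processing notes with Trimmomatic (0.36), STAR (2.5.2b) and featureCounts on GRCm38.p5. The annotation and strand setting of the counting are not given in the sources used here.

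Counts were tested with edgeR (4.0.16, R 4.3.3) after filterByExpr and TMM. Its quasi-likelihood test held a single term, the genotype. The study used DESeq2, which was run here as an alternative (1.42.0), with limma-voom (3.58.1), other scalings, filters and thresholds, each lung left out, and a replicate block. Shares and ratios came from the raw counts and were compared with exact permutation tests (scipy 1.17.1). Coordinates, lengths and sequences were read from the GRCm38 genome with GENCODE M21, and shared sequence as 100-base windows found in transcripts of another gene. Of 111 list symbols, 109 were matched, 1 of them by its older name. Ccl21d and Fdcsp were not matched. The members and gene lists were chosen with earlier results of these data known. All 10 members are named, and of each list the 2 genes with the largest significant change above a mean log2 CPM of 1, plus fixed marker genes, some of which are not reported here. Tgfb1, Bcl6, Ccr10, Madcam1 and Krt13 were named after their values were seen. Replicates of a genotype differed by more than sampling noise (chi-square per degree of freedom 53.7 to 140), and all lungs were used. The detection limit was fixed at 3 counts in every lung, and its CPM value was taken on the total without TMM scaling. The analysis programs were tested on simulated data.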

Additional observations from a re-analysis of the deposited data

How the results depend on the processing

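The number of members called higher, 9, was 8 with DESeq2, which gave Ighg3 no adjusted p, 8 with a filter of at least 10 counts in every lung, where Ighe was not tested, and 7 with robust dispersion, where Ighg3 and Igha were not called (adjusted p = 0.0578 and 0.0839 by edgeR). The count was 9 under each other alternative, with any lung left out, and under the replicate block. All genes called, 9096, came to 9042 with DESeq2 (8432 shared), 4320 where an absolute log2 fold change of at least 1 was also asked for, and 7347 to 9164 with a lung left out. Same-numbered lungs did not deviate together (correlations across genes of -0.15, -0.004 and -0.24), and the replicate block called 7686 genes. For the shares, the replicate block was a sign-flip test of same-numbered differences, whose mean equals the difference of group means by construction and whose p cannot go below 0.25, so it says nothing about stability (IgG difference 14.7 percentage points, exact permutation p = 0.25). Among shares and ratios, the signs that turned were those of differences with p of 0.4 or more. The IgM difference was 4.11 without TNF-Tg 3, 0.896 without WT 1 and 2.502 without TNF-Tg 1 and WT 1, with a range of -16.7 to 4.11 over single lungs. The IgA difference was 0.140 per kb of the secreted transcript, 0.229 without TNF-Tg 1, 12.2 without TNF-Tg 2 and 14.2 without WT 3 (range -13.7 to 14.2). The difference of Igkc per 100 heavy chain counts was -1.84 without TNF-Tg 1 and WT 1 (range 3.65 to 20.7 over single lungs). The kappa difference was 0.377 without TNF-Tg 1 and 0.482 without WT 3 (range -1.17 to 0.482). The log2 fold change of Ighd was -0.034 without WT 1 (range -0.034 to 0.41). The causes were not tested. Leaving out TNF-Tg 1 with WT 1 and the length of the secreted transcript were chosen after seeing the data. With 3 lungs per group, no share or ratio could reach 0.05, and the 742 IgG counts of WT 1 limit its subclass shares most.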

Other observations

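Iglc1 led the lambda light chain mix of TNF-Tg 1, where it made up 86.9% of the lambda constant counts, against 51.3% and 54.1% in the other TNF-Tg lungs and 48.6% to 53.9% in WT lungs. TNF-Tg 2 held the largest share of Iglc3, 36.5%, against 5.21% in TNF-Tg 1, 20.1% in TNF-Tg 3 and 15.8% to 31.6% in WT lungs. TNF-Tg 1 was also the lung with the highest share of Ighg3 within IgG, and TNF-Tg 2 the one with the lowest. Iglc2 ran from 7.84% to 25.8% of lambda counts in TNF-Tg lungs and from 19.7% to 30.3% in WT lungs, so the groups overlapped for all 3 of these genes.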
